A study of Homo sapiens with 36 samples.

Results

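The ligands of the EGF family and the ERBB receptors that bind them were followed across 12 groups of HK-2 cells, an immortalised line derived from human renal proximal tubule epithelium. The 9 genes were chosen by name: HBEGF, AREG, EREG, TGFA and BTC, which bind EGFR, the neuregulin NRG1, and the receptors EGFR, ERBB2 and ERBB3. Each was represented by the probe set, a group of short array probes for 1 transcript, that carried its symbol alone and had the highest mean over the 36 arrays. Of the 9 genes, 8 had such a probe set, of 19775 genes represented on the array, and AREG was not analysed here.

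Total RNA was hybridised to single-colour Affymetrix arrays. Exposure was to Aa, with harvest at 24 and 48 h, or to Ota, with harvest at 24 and 72 h. Each of these 4 settings had a high dose, a low dose and its own vehicle controls, with 3 biological replicates per group. Aa and Ota are the labels' abbreviations; concentrations are not given, so high and low rank doses within a compound only. All 12 groups, controls included, shared a medium with hormone supplements and 10 ng/ml recombinant human EGF, which is itself a ligand of EGFR, so no group was free of ligand. The cells are 1 line, and every value is a level of RNA, not of protein, of a shed ligand or of receptor activity.

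EGF family ligands are made as membrane-anchored precursors, and metalloproteases of the ADAM family cut them loose. A bound ligand joins ERBB receptors in pairs, which phosphorylate each other and start the RAS-ERK and PI3K-AKT pathways. EGFR takes EGF, TGFA, AREG, HBEGF, EREG and BTC, ERBB3 takes neuregulins and has an impaired kinase, and ERBB2 has no known ligand of its own and acts as a partner of the others. In the proximal tubule EGFR is known for driving growth and repair after injury, and its ligands are themselves transcribed downstream of ERK.

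The deposited values are log2 expression values, and 1 unit is a doubling. The replicates of a group correlated at 0.953 to 0.994 over all genes. The median over the genes tested stood apart in the Ota high dose groups, at 7.51 ± 0.17 at 24 h against 8.18 ± 0.05 in its controls and at 7.83 ± 0.05 at 72 h against 8.17 ± 0.02 in its controls (SD, n = 3 each), while the other 6 treated groups lay between 8.05 and 8.24. The 3' minus 5' difference of the ACTB control probes, a sign of RNA integrity, was 1.88 ± 0.37 in Ota high dose cells at 72 h and 1.29 ± 0.15 in their controls (SD, n = 3 each). In Aa high dose cells at 48 h, where HBEGF changed most, it was 1.25 ± 0.30 against 0.86 ± 0.22 in controls, and higher in each of the 3 same-numbered pairs; its part in the results was not tested. The median change of all tested genes in Ota high dose cells against control at 24 h was -0.26 as deposited, 0.14 after quantile normalization and 0.38 after each array was shifted to a common median, so small changes in that comparison depend on the scale. Of the genes called there, 33.7% were higher as deposited, 55.6% after quantile normalization and 63.8% after the shift. At 72 h those shares were 41.5%, 54.6% and 58.6%, and the median change was -0.12, 0.12 and 0.20. In cultures of 1 line, fewer cells of a kind and less RNA per cell cannot be told apart. The epithelial keratins KRT8, KRT18 and KRT19 and the adhesion protein EPCAM had group means of 10.04 to 13.89. The proximal tubule transporters and receptors LRP2, CUBN, AQP1, SLC34A1 and SLC5A2 and the peptidase ANPEP did not exceed 3.16 in any group. These named markers of a mature proximal tubule were thus near background. Their list of 14 epithelial and tubule markers also held GGT1, VIM, CDH1 and CDH2. Of the 14, 7 were at or under 4 on all arrays of a group, but 6 in Aa high dose cells at 48 h and Ota high dose cells at 24 h.

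Promoters of 7 of the 9 genes were read (RefSeq, GRCh38.p14). NRG1, whose chromosome was left out of the search, and ERBB3 were not among them. Those of HBEGF, EREG and EGFR are shown because HBEGF and EGFR moved in opposite directions in the arrays below. Over all group means EREG correlated little with HBEGF (Pearson correlation 0.113) or with EGFR (-0.016). EREG did rise with HBEGF at the high dose of Aa, by a log2 change of 1.25 at 24 h and 1.66 at 48 h. Each promoter shown is the 250 bases before the transcription start, read 5′ to 3′ on the gene's strand. Capitals mark GGGCGG, the core of an SP1 site, and the TATA box TATAAA, each searched on both strands, so that the reverse complement is in capitals too.
HBEGF (chr5:140346604-140346853, minus strand): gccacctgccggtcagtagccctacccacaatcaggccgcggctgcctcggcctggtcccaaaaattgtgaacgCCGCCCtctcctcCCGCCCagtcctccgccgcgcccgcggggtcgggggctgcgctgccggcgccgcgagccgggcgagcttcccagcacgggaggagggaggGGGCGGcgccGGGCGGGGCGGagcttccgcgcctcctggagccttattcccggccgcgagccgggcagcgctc
EREG (chr4:74364895-74365144, plus strand): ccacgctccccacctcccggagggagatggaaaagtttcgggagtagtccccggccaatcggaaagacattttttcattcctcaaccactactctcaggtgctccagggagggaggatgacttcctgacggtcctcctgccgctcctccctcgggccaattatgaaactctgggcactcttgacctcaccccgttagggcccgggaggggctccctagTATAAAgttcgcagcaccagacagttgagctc
EGFR (chr7:55018767-55019016, plus strand): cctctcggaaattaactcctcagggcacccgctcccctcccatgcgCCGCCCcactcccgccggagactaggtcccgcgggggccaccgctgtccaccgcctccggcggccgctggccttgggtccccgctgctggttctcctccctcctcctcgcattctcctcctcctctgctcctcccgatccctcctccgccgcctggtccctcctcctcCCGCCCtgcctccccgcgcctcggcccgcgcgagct
HBEGF held 5 matches to GGGCGG with 76.4% G or C, and EGFR 2 matches with 73.6% G or C. EREG held none of these, a single TATAAA, and 58.0% G or C. Over 35116 promoters of the same length on both strands, 42.6% held GGGCGG, 10.7% held TATAAA, and the median content of G or C was 58.0%. None of the 3 windows held the AP-1 site TGANTCA, found in 6.57% of promoters, or the CRE TGACGTCA, found in 1.65%. EGFR has another RefSeq start, downstream on chromosome 7, whose window is not printed: it held no GGGCGG, 2 TATAAA and 2 TGANTCA, with 38.8% G or C. These matches describe the letters of the windows only.

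A gene was tested where its value exceeded 4 on at least 3 arrays of a compound, and called where the adjusted p of limma's moderated test, over all tested genes, was under 0.05. At the high dose of Aa, 4 of 7 tested members were called at 24 h (2 higher, 2 lower), against 51.3% of all 10972 tested genes (27.4% higher, 24.0% lower), and all 7 were called at 48 h (3 higher, 4 lower), against 66.0% (30.9% higher, 35.1% lower). At the high dose of Ota, 7 of 8 were called at 24 h (3 higher, 4 lower), against 64.0% of 11029 genes (21.6% higher, 42.4% lower), and 6 of 8 at 72 h (2 higher, 4 lower), against 63.4% (26.3% higher, 37.0% lower). With most of the tested genes called, these counts say little about the members, and the results lie in which of them moved, in which direction and how far. Without replicate 2 of the Ota controls at 24 h, 4 of 8 were called in Ota high dose cells at that time.

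The low doses called fewer. At 24 h of low dose Aa, 1 of 7 members was called (higher) against 25.1% of genes (11.6% higher, 13.5% lower), and 4 of 7, against 39.4% of genes, with the replicate number as a block, which pairs the Aa arrays. Without the block, the count was 0 without low dose replicate 1 or without control replicate 2, and 4 without low dose replicate 2. At 48 h of low dose Aa, 4 of 7 were called (2 higher, 2 lower) against 37.9% of genes (18.8% higher, 19.1% lower). In low dose Ota cells 1 of 8 was called (lower) at 24 h against 14.7% of genes (4.66% higher, 10.0% lower), and 2 with the replicate block, with which 1766 of the 11029 genes were called. At 72 h of low dose Ota 4 of 8 were called (2 higher, 2 lower) against 17.1% (9.79% higher, 7.28% lower), and 2 without control replicate 3, without low dose replicate 1 or without low dose replicate 3. Leaving out 1 array gave 1170 to 1531 genes there, against 1883. The median change of the tested members against control was 0.14, 0.19, -0.64 and 0.05 for Aa high 24 h, low 24 h, high 48 h and low 48 h, beside 0.03, -0.02, -0.04 and 0.01 over all tested genes. For Ota high 24 h, low 24 h, high 72 h and low 72 h it was 0.08, -0.14, -0.75 and -0.01, beside -0.26, -0.05, -0.12 and 0.02. These medians join members that rose with members that fell, with ligands among both, as the plot of changes by gene shows.

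**Figure D1:**
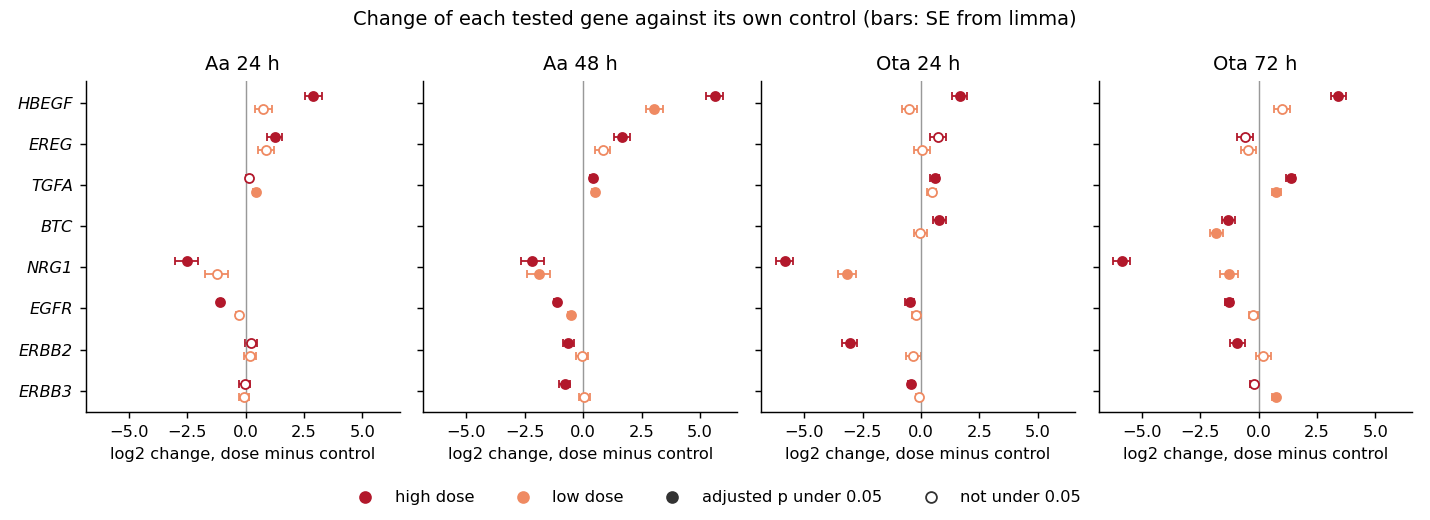
Log2 change (dose minus control, x axis) of the 8 genes with a probe set (y axis), 1 panel for each compound and time, dark red for high dose and orange for low dose, with bars for the SE from limma. Filled points have an adjusted p under 0.05; HBEGF lies right of 0 at every high dose, up to 5.62, NRG1 lies left of it, BTC was not tested in Aa, and changes of groups at or under a log2 value of 4 are drawn without a floor.

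HBEGF, the heparin-binding ligand of EGFR and ERBB4, was the member that rose furthest. In Aa high dose cells at 24 h its values were 10.06, 9.79 and 10.03, in low dose cells 7.83, 7.13 and 8.48, and in controls 6.63, 6.84 and 7.72. At 48 h they were 11.36, 11.23 and 11.76 in high dose cells, 8.51, 9.31 and 8.77 in low dose cells and 5.26, 5.81 and 6.42 in controls. The high dose arrays lay above all others at both times, and the low dose arrays overlapped the controls at 24 h and stood clear of them at 48 h. The change was 2.90 ± 0.36 at high dose and 24 h (SE; 7.48-fold, adjusted p = 9.62e-06) and 5.62 ± 0.36 at 48 h (49.2-fold, adjusted p = 1.02e-08). At low dose it was 3.04 ± 0.36 at 48 h (8.21-fold, adjusted p = 1.82e-05), and 0.75 ± 0.36 at 24 h, which did not pass (adjusted p = 0.145, and 0.0391 without low dose replicate 2). The high dose exceeded the low dose by 2.15 ± 0.36 at 24 h and by 2.59 ± 0.36 at 48 h (adjusted p = 0.000454 and 4.63e-05).

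The Aa high dose effect on HBEGF was larger at 48 h than at 24 h, by 2.72 ± 0.51 (adjusted p = 0.00249). It was the 1 member of 7 called in that interaction, against 20.7% of genes (7.14% higher, 13.6% lower), and with the replicate block 3 members were called, against 39.2%. Part of this difference lay in the controls, whose HBEGF averaged 5.83 ± 0.58 at 48 h and 7.06 ± 0.58 at 24 h (SD, n = 3 each). That step of -1.23 ± 0.36 did not pass (adjusted p = 0.0926), but did with the replicate block (adjusted p = 0.013) or without 48 h control replicate 3 (adjusted p = 0.034). It was the 1 member called with the block among the Aa controls, where 0 of 7 were called without it, against 1.29% of genes (0.565% higher, 0.729% lower). With the block 16.3% of genes were called there, near the share of 1 member in 7. At an unadjusted p under 0.05 from limma, 2 of 7 members passed there. The share of all genes at that threshold is not given here. The 1.29% and 16.3% are for adjusted p, so this count cannot be read against them.

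Under Ota, HBEGF was at 7.66, 7.87 and 7.83 in high dose cells at 24 h, against 5.76, 5.19 and 5.98 in low dose cells and 6.60, 5.32 and 6.48 in controls. At 72 h it was at 8.89, 8.31 and 9.16 in high dose cells, 6.13, 5.98 and 6.98 in low dose cells and 5.14, 5.25 and 5.69 in controls. High dose arrays stood above all others at both times, and low dose arrays cleared the controls only at 72 h. The high dose change was 1.65 ± 0.34 at 24 h (3.15-fold, adjusted p = 0.000526) and 3.42 ± 0.34 at 72 h (10.7-fold, adjusted p = 3.97e-07). It was larger at 72 h by 1.77 ± 0.48 (adjusted p = 0.00607). At low dose the change of 1.00 ± 0.34 at 72 h did not pass (adjusted p = 0.056), nor did -0.49 ± 0.34 at 24 h (adjusted p = 0.404). On the other tested HBEGF set, 38037_at, that low dose change at 72 h was called (1.57, adjusted p = 0.0204), and the Ota controls were lower at 72 h than at 24 h (-1.55, adjusted p = 0.0149; on the reported set -0.77, 0.105). On the reported set the high dose exceeded the low dose by 2.14 ± 0.34 at 24 h and by 2.42 ± 0.34 at 72 h (adjusted p = 6.66e-05 and 2.1e-05).

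Between compounds at 24 h, where doses are not matched, the Ota high dose change of HBEGF was smaller than that of Aa by -1.25 ± 0.51 (adjusted p = 0.0375). This call was lost on 38037_at (-1.28, adjusted p = 0.0877), after quantile normalization (-0.67, adjusted p = 0.256) and after the shift to a common median (-0.51, adjusted p = 0.391), and adjusted p lay between 0.0626 and 0.11 without any of 7 of the 12 arrays involved (Aa control replicates 1 and 2, Aa high dose replicates 1 and 3, Ota control replicates 1 and 3, and Ota high dose replicate 1). In that interaction 4 of 8 members were called (1 higher, 3 lower), against 59.4% of 11405 genes (18.7% higher, 40.7% lower). Over all 12 groups, mean HBEGF was highest at 11.45 in Aa high dose cells at 48 h and next at 9.96 in Aa high dose cells at 24 h, each with a range apart from the group below it. All further neighbours in that order overlapped, down to 5.36 in the Ota controls at 72 h.

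**Figure D2:**
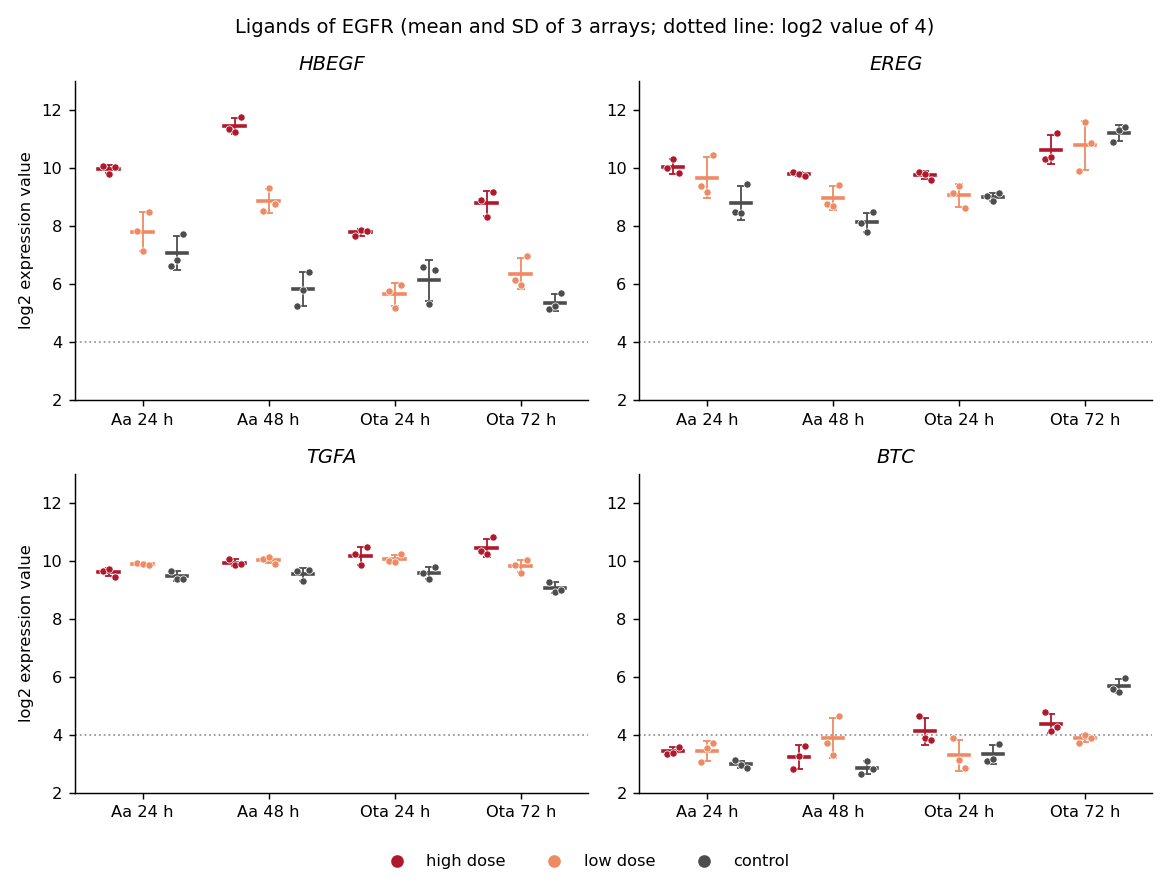
Log2 expression values (y axis) of HBEGF, EREG, TGFA and BTC on each array, for each compound and time (x axis), high dose in dark red, low dose in orange and control in grey, with the mean and SD of 3 arrays. The dotted line is a log2 value of 4; HBEGF spans 5.14 to 11.76, EREG is highest in the 72 h Ota groups, TGFA stays between 8.92 and 10.80, and BTC lies clearly above the line only in the Ota controls at 72 h.

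EREG, epiregulin, a ligand of EGFR and ERBB4, rose at the high dose of Aa, and was not called at either dose of Ota. Aa high dose cells had 10.02, 10.31 and 9.82 at 24 h, low dose cells 9.38, 9.16 and 10.46, and controls 8.48, 8.46 and 9.46. At 48 h, high dose cells had 9.87, 9.78 and 9.71, low dose cells 8.78, 8.69 and 9.43, and controls 8.09, 7.81 and 8.48. High dose arrays were above all control arrays at both times, and low dose arrays were clear of the controls only at 48 h. The high dose change was 1.25 ± 0.33 at 24 h and 1.66 ± 0.33 at 48 h (SE; 2.38-fold and 3.16-fold, adjusted p = 0.00498 and 0.00039). The low dose changes of 0.87 ± 0.33 at 24 h and 0.84 ± 0.33 at 48 h did not pass (adjusted p = 0.0657 and 0.0559) but did with the replicate block (adjusted p = 0.0208 and 0.0184). They also passed without low dose replicate 2 (0.0296) or control replicate 3 (0.019) at 24 h, and without control replicate 3 (0.0453) at 48 h.

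In Ota the arrays of EREG at 72 h all lay above those at 24 h. At 72 h EREG was 10.30, 10.38 and 11.21 in high dose cells, 9.90, 11.60 and 10.86 in low dose cells and 10.91, 11.32 and 11.42 in controls, which overlap. At 24 h the high dose arrays, at 9.85, 9.80 and 9.60, stood above the controls at 9.04, 8.86 and 9.14, while the low dose arrays, at 9.14, 9.39 and 8.64, overlapped them. The controls at 72 h exceeded those at 24 h by 2.20 ± 0.34 (4.60-fold, adjusted p = 0.00017). EREG and BTC were the 2 of 8 members called between the Ota controls, both higher, against 29.8% of genes (14.0% higher, 15.8% lower), and without 24 h control replicate 2 the count was 4. Leaving out 1 array gave 2526 to 2829 genes there, against 3282. Neither high dose change passed: 0.74 ± 0.34 at 24 h (adjusted p = 0.0688) and -0.59 ± 0.34 at 72 h (adjusted p = 0.145). The change at 24 h passed after quantile normalization (0.98, adjusted p = 0.0211) and after the shift (1.37, adjusted p = 0.00225), and that at 72 h without high dose replicate 3 (-0.88, adjusted p = 0.0433). The high dose effect at 72 h was below that at 24 h by -1.32 ± 0.48 (adjusted p = 0.0294), a call lost without any of 6 of the 12 arrays involved (control replicate 2 and high dose replicate 1 at 24 h, control replicates 2 and 3 and high dose replicates 1 and 2 at 72 h; adjusted p 0.0555 to 0.074).

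TGFA, transforming growth factor alpha, a ligand of EGFR alone, was called higher, by small amounts, in 6 of 8 dose groups on its reported probe set, and 5 of these calls were not made on another of its sets. In Ota cells at 72 h it was at 10.33, 10.22 and 10.80 in high dose cells, 9.87, 9.57 and 10.01 in low dose cells and 9.28, 8.92 and 8.98 in controls. The 3 groups did not overlap, in the order of the dose. The change was 1.39 ± 0.19 at high dose (SE; 2.62-fold, adjusted p = 1.25e-05) and 0.75 ± 0.19 at low dose (1.69-fold, adjusted p = 0.0131). The call at low dose was lost without control replicate 2 (0.054), control replicate 3 (0.0543), low dose replicate 1 (0.0505) or low dose replicate 3 (0.0638). The high dose exceeded the low dose by 0.63 ± 0.19 (adjusted p = 0.0103; 0.0586 without high dose replicate 3 and 0.0541 without low dose replicate 2).

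At 24 h of Ota, TGFA was at 10.22, 9.83 and 10.46 in high dose cells, 9.98, 9.96 and 10.21 in low dose cells and 9.57, 9.38 and 9.78 in controls. Both doses were above every control array, by 0.59 ± 0.19 at high dose (adjusted p = 0.0139) and 0.47 ± 0.19 at low dose, which did not pass (adjusted p = 0.119, and 0.0292 with the replicate block). The high dose call was lost without control replicate 2 (0.061) or high dose replicate 3 (0.0658). The high dose effect was larger at 72 h by 0.80 ± 0.27 (adjusted p = 0.0215), and the controls had moved the other way, averaging 9.06 ± 0.19 at 72 h and 9.58 ± 0.20 at 24 h (SD, n = 3 each; adjusted p = 0.0529). That difference of effects failed after the shift to a common median (0.49, adjusted p = 0.109) and without 24 h control replicate 3, 24 h high dose replicate 2, 72 h control replicate 2 or 72 h high dose replicate 3 (adjusted p 0.0513 to 0.0591).

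In Aa, TGFA at 48 h averaged 9.93 ± 0.11 in high dose cells, 10.02 ± 0.12 in low dose cells and 9.53 ± 0.22 in controls (SD, n = 3 each). Both doses passed, at 0.40 ± 0.13 and 0.49 ± 0.13 (SE; adjusted p = 0.011 and 0.00663), and the high dose call was lost without control replicate 2 (0.0701). At 24 h the low dose rose by 0.43 ± 0.13 (adjusted p = 0.0211), a call lost without low dose replicate 1 (0.0674), control replicate 2 (0.0791) or control replicate 3 (0.0777), and the high dose, at 0.14 ± 0.13, did not pass (adjusted p = 0.368). High minus low dose at 24 h, at -0.29 ± 0.13, did not pass (adjusted p = 0.107), and did with the replicate block (0.0493). TGFA had 2 other tested probe sets. On 205015_s_at the changes were also positive, but 5 of the 6 calls were not made: Aa high dose 48 h (0.60, adjusted p = 0.0687), Aa low dose 24 and 48 h (0.34 and 0.55, 0.409 and 0.139), Ota high dose 24 h (0.35, 0.503) and Ota low dose 72 h (0.88, 0.209). On 211258_s_at the calls not made were Ota low dose 72 h (0.76, adjusted p = 0.0835), Ota high against low dose at 72 h (0.53, 0.127) and the Ota time interaction (0.60, 0.232). The rise at high dose Ota 72 h was called on both, at 2.42 and 1.29 (adjusted p = 0.000196 and 0.000987). TGFA was the member with the narrowest span of group means, 9.06 to 10.45.

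BTC, betacellulin, a ligand of EGFR and ERBB4, exceeded 4 on 8 of 36 arrays and was tested in Ota only. Those arrays included all 3 Ota controls at 72 h, at 5.58, 5.49 and 5.96, and all 3 high dose arrays at that time, at 4.77, 4.11 and 4.28, while the low dose arrays were at 3.72, 3.99 and 3.90. The 3 groups did not overlap, and the low dose was lowest. BTC fell in Ota cells at 72 h by 1.29 ± 0.28 at high dose (SE; 2.45-fold, adjusted p = 0.000706) and was at least 3.20-fold lower at low dose (adjusted p = 0.000371), with the low dose arrays set to the floor of 4. At 24 h it averaged 4.11 ± 0.46 in high dose cells and 3.32 ± 0.32 in controls (SD, n = 3 each), a call (0.79 ± 0.28, adjusted p = 0.0195) that shrank to 0.21 with values at or under 4 set to 4 (adjusted p = 0.333). It was also lost without high dose replicate 1 (0.113), control replicate 1 (0.073) or control replicate 2 (0.0612). The controls at 72 h were at least 3.20-fold above those at 24 h (adjusted p = 1.23e-05), and the high dose effect at 72 h was below that at 24 h by -2.08 ± 0.39 (adjusted p = 0.000373; -1.50 with the floor).

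NRG1, neuregulin 1, whose receptors are ERBB3 and ERBB4, fell in 7 of 8 dose groups on its reported probe set, and furthest of all members. In Ota high dose cells it was at 3.92, 3.30 and 4.07 at 24 h, against 6.73, 5.33 and 7.26 in low dose cells and 9.61, 9.28 and 9.91 in controls. At 72 h it was at 3.12, 2.77 and 3.31 in high dose cells, 7.53, 7.64 and 7.84 in low dose cells and 8.67, 8.71 and 9.40 in controls. The 3 groups stood apart in the order of the dose at both times, and high dose values were at or near background. The high dose change was -5.84 ± 0.37 at 24 h (SE, adjusted p = 2.81e-09; -5.58 with values at or under 4 set to 4), and at 72 h the high dose cells were at least 30.5-fold lower (adjusted p = 4.13e-09). At low dose NRG1 fell by 3.16 ± 0.37 at 24 h (8.95-fold, adjusted p = 3.93e-05) and by 1.26 ± 0.37 at 72 h (2.39-fold, adjusted p = 0.0301). The last call was lost without control replicate 3 (0.137), low dose replicate 1 (0.0993), low dose replicate 2 (0.0718) or low dose replicate 3 (0.0589).

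In Aa cells the fall of NRG1 was smaller. At 24 h its values were 5.91, 6.96 and 7.22 in high dose cells, 7.58, 8.19 and 8.20 in low dose cells and 8.86, 9.28 and 9.54 in controls. At 48 h they were 6.18, 5.38 and 6.11 in high dose cells, 4.89, 7.22 and 6.41 in low dose cells and 7.35, 8.37 and 8.51 in controls. Treated arrays were below every control array of their time, and the doses overlapped each other only at 48 h. NRG1 fell at high dose by 2.53 ± 0.50 at 24 h and by 2.18 ± 0.50 at 48 h (SE; 5.78-fold and 4.54-fold, adjusted p = 0.000584 and 0.00125), and at low dose by 1.90 ± 0.50 at 48 h (3.74-fold, adjusted p = 0.00764). The low dose change of -1.24 ± 0.50 at 24 h did not pass (adjusted p = 0.0829) but did with the replicate block (0.0198). Between compounds at 24 h the Ota high dose change lay below that of Aa by -3.31 ± 0.65 (adjusted p = 7.35e-05).

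In Ota the other NRG1 probe sets gave smaller changes than the reported one. Besides 206343_s_at, 4 of 5 others were tested. At the high dose of Ota, 206237_s_at changed by 0.28 at 24 h (adjusted p = 0.609) and by -1.67 at 72 h (0.00448), 208241_at by -1.73 and -1.82 (0.000694 and 0.000456), 208230_s_at by -0.44 and -0.75 (0.185 and 0.0303), and 208232_x_at by 0.58 and 0.05 (0.0274 and 0.869). So 1 of the 4 was called higher at 24 h. At low dose Ota 24 h 208241_at was also called lower. There 206237_s_at, 208230_s_at and 208232_x_at were not called (0.06, -0.21 and 0.17, adjusted p = 0.966, 0.722 and 0.684). At low dose Ota 72 h none of the 4 was called (adjusted p 0.348 to 0.782). The changes were 0.27 on 206237_s_at, -0.47 on 208241_at, -0.44 on 208230_s_at and -0.20 on 208232_x_at. In Aa high dose cells 208241_at fell by 2.37 at 24 h and by 2.50 at 48 h, and 206237_s_at by 1.26 and 1.41, each called. There 208232_x_at was not called at either time (-0.34 and -0.20, adjusted p = 0.296 and 0.521), and 208230_s_at was called at 48 h (-0.54, 0.0359) but not at 24 h (-0.44, 0.0952). At low dose Aa 48 h neither of them was called (-0.18 and -0.52, adjusted p = 0.629 and 0.0662). At low dose Aa 24 h the reported set was not called, but 206237_s_at and 208241_at were called lower (-1.25 and -1.45, adjusted p = 0.00571 and 0.0133). The difference in effect between the compounds was of the other sign on 206237_s_at (1.54, adjusted p = 0.0206) and 208232_x_at (0.92, adjusted p = 0.0243). NRG1 is transcribed in several isoforms; whether these sets read different ones was not tested.

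**Figure D3:**
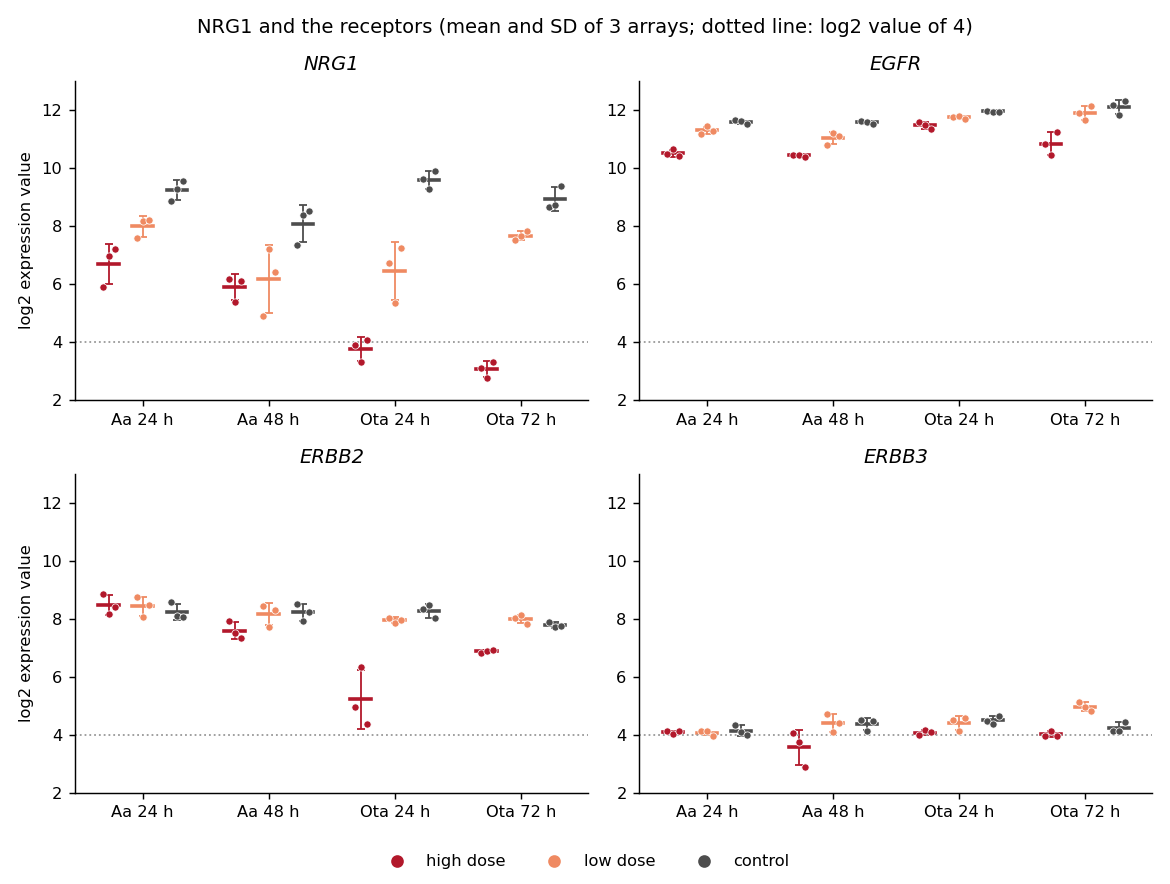
Log2 expression values (y axis) of NRG1, EGFR, ERBB2 and ERBB3 on each array, for each compound and time (x axis), high dose in dark red, low dose in orange and control in grey, with the mean and SD of 3 arrays; the dotted line is a log2 value of 4. NRG1 and EGFR fall with dose, ERBB2 is lowest in Ota high dose cells at 24 h, at 4.37 to 6.35, and ERBB3 stays near the line.

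EGFR, the receptor of HBEGF, EREG, TGFA and BTC, was called lower at every high dose on its reported probe set. The call at 24 h of Ota depended on the scale and on single arrays. In Aa cells at 24 h its values were 10.48, 10.64 and 10.41 at high dose, 11.18, 11.44 and 11.27 at low dose and 11.65, 11.61 and 11.52 in controls. At 48 h they were 10.46, 10.46 and 10.38 at high dose, 10.80, 11.22 and 11.09 at low dose and 11.62, 11.60 and 11.51 in controls. The 3 groups did not overlap at either time, in the order of the dose. EGFR fell at high dose by 1.08 ± 0.11 at 24 h and by 1.15 ± 0.11 at 48 h (SE; 2.12-fold and 2.21-fold, adjusted p = 1.93e-06 and 4.6e-07). At low dose it fell by 0.54 ± 0.11 at 48 h (adjusted p = 0.00157), and the change of -0.30 ± 0.11 at 24 h did not pass (adjusted p = 0.0658) but did with the replicate block (0.0215) or without low dose replicate 2 (0.0402). The high dose lay below the low dose by -0.78 ± 0.11 at 24 h and by -0.60 ± 0.11 at 48 h (adjusted p = 0.000137 and 0.000492), and its effect did not differ detectably between the times (-0.06 ± 0.16, 95% interval -0.40 to 0.27).

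In Ota cells EGFR was at 11.59, 11.48 and 11.35 at high dose and 24 h, 11.75, 11.81 and 11.69 at low dose and 11.97, 11.95 and 11.95 in controls. At 72 h it was at 10.83, 10.45 and 11.24 at high dose, 11.91, 11.66 and 12.12 at low dose and 12.19, 11.84 and 12.32 in controls. High dose arrays were the lowest at both times. EGFR fell at high dose by 1.27 ± 0.18 at 72 h (SE; 2.42-fold, adjusted p = 1.54e-05), and the high dose effect at 72 h was below that at 24 h by -0.79 ± 0.25 (adjusted p = 0.0158). The change at 24 h, -0.48 ± 0.18 (adjusted p = 0.0286), turned to 0.16 after the shift to a common median, and was not called without high dose replicate 3 (0.08) or without control replicates 1, 2 or 3 (0.0651, 0.0565 and 0.0576). Neither low dose change passed, at -0.20 ± 0.18 at 24 h and -0.22 ± 0.18 at 72 h (adjusted p = 0.534 and 0.476). The Ota high dose change at 24 h was above that of Aa by 0.60 ± 0.21 (adjusted p = 0.017).

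EGFR had 9 probe sets, of which 6 others were tested. The 4 others with means over 7 were called lower at high dose at both times of Aa (-1.05 to -1.95) and at 72 h of Ota (-1.11 to -2.56). At 24 h of Ota 201984_s_at and 224999_at were called lower (-2.09 and -0.76), and 210984_x_at and 211607_x_at were not (-0.26 and -0.22, adjusted p = 0.166 and 0.347). At low dose Aa 24 h, where the reported set was not called, 201984_s_at, 211607_x_at and 210984_x_at were called lower (-0.84, -0.68 and -0.58, adjusted p = 0.00225, 0.00973 and 0.0334) and 224999_at was not (-0.36, 0.105). The dim sets 1565483_at and 1565484_x_at, with means of 2.46 and 2.96 over the 36 arrays, went the other way at 48 h of high dose Aa (2.60, adjusted p = 0.0331, and 1.26, adjusted p = 0.124). The plot of the probe sets of each gene sets these side by side.

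**Figure D4:**
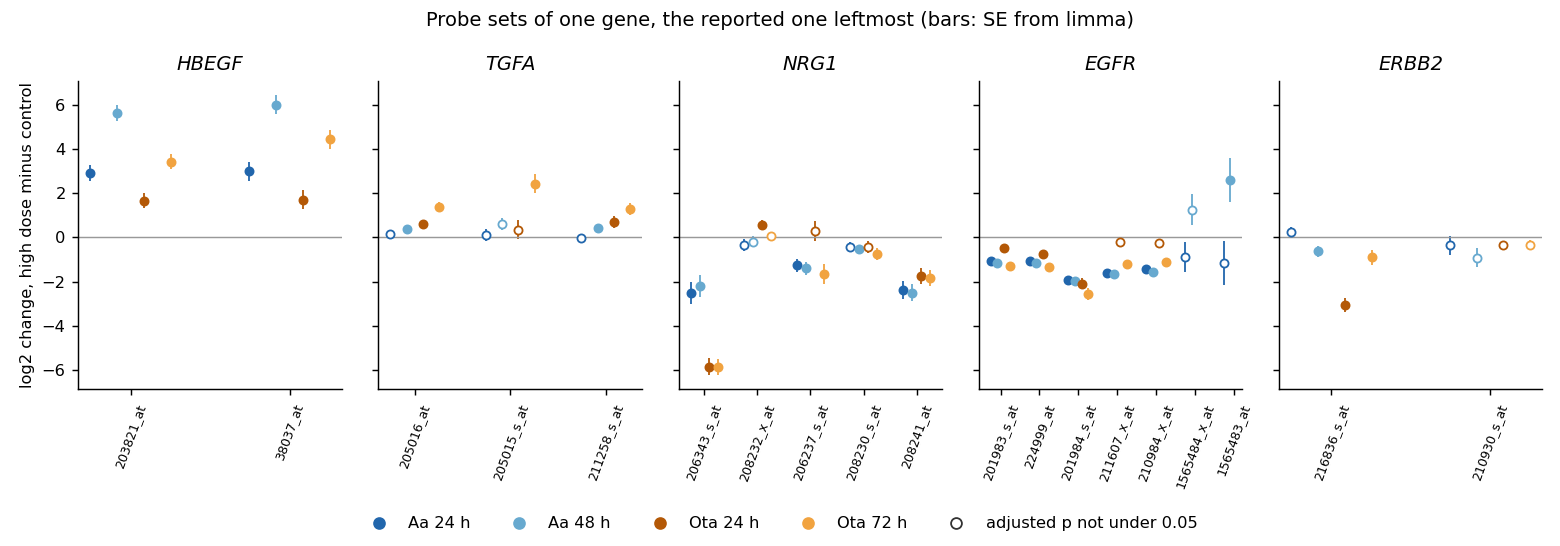
Log2 change at high dose (high dose minus control, y axis) of each tested probe set of HBEGF, TGFA, NRG1, EGFR and ERBB2 (x axis, the reported set leftmost), blue for Aa and brown for Ota, with bars for the SE from limma and open points where adjusted p was not under 0.05. Both HBEGF sets rise by 1.65 to 6.00, whereas for NRG1 only the reported set falls by more than 5 in Ota.

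Across the 12 groups mean EGFR and mean HBEGF ran in opposite order, with a Pearson correlation of -0.953 over the 12 group means. EGFR was highest, at 12.12 and 11.95, in the Ota controls at 72 and 24 h, and lowest, at 10.43 and 10.51, in Aa high dose cells at 48 and 24 h, where HBEGF was highest. Neighbours in the EGFR order overlapped, except between Ota low dose at 24 h (11.75) and the Aa controls at 24 h (11.59). These groups share compounds, controls and scaling, so the correlation only describes them. Among the other pairs of members the largest was -0.847, between TGFA and NRG1, and that of EREG with EGFR was -0.016.

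**Figure D5:**
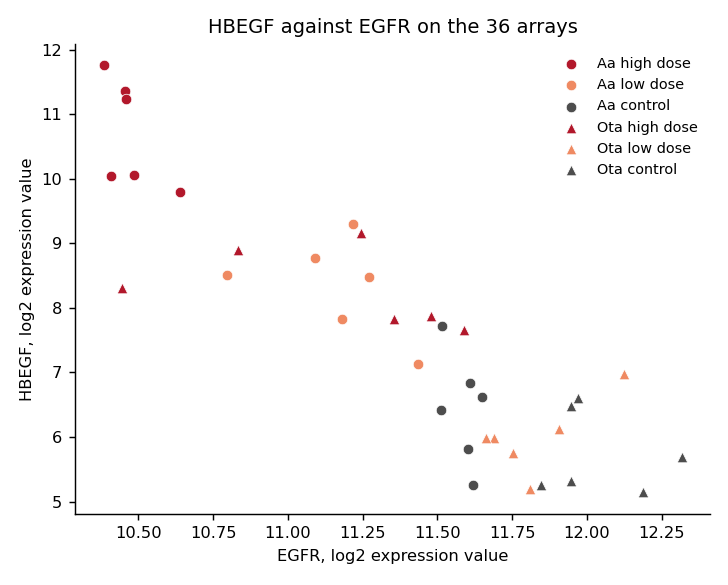
HBEGF (y axis) against EGFR (x axis), both as log2 expression values, on the 36 arrays, circles for Aa and triangles for Ota, with high dose in dark red, low dose in orange and control in grey. Aa high dose arrays sit at the upper left, with EGFR of 10.38 to 10.64 and HBEGF of 9.79 to 11.76, and controls at the lower right, with EGFR of 11.51 to 12.32 and HBEGF of 5.14 to 7.72.

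ERBB2, the partner receptor without a known ligand, fell furthest in Ota high dose cells. At 24 h its values were 4.95, 6.35 and 4.37 at high dose, 8.04, 7.86 and 7.96 at low dose and 8.34, 8.47 and 8.01 in controls. At 72 h they were 6.83, 6.87 and 6.93 at high dose, 8.03, 8.12 and 7.83 at low dose and 7.90, 7.70 and 7.75 in controls. High dose arrays lay below all others at both times, and at 24 h they were more widely spread than the ERBB2 values of any other group. ERBB2 fell by 3.05 ± 0.33 at 24 h (SE; 8.29-fold, adjusted p = 7.89e-07) and by 0.91 ± 0.33 at 72 h (1.88-fold, adjusted p = 0.0238), and the effect at 72 h was above that at 24 h by 2.14 ± 0.46 (adjusted p = 0.00118). The call at 72 h was lost after quantile normalization (-0.44, adjusted p = 0.335) and after the shift (-0.58, adjusted p = 0.177), and without control replicate 1 (0.0666), high dose replicate 1 (0.0578) or high dose replicate 2 (0.0514). Low dose changes did not pass, at -0.32 ± 0.33 and 0.21 ± 0.33 (adjusted p = 0.607 and 0.744). On the other tested ERBB2 probe set, 210930_s_at, neither high dose change passed (-0.37 and -0.35, adjusted p = 0.154 and 0.175); it had a mean of 4.27 over the 36 arrays.

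In Aa cells ERBB2 averaged 8.47 ± 0.35 at high dose and 24 h and 8.23 ± 0.29 in controls, and 7.58 ± 0.29 at high dose and 48 h and 8.22 ± 0.30 in controls (SD, n = 3 each). The groups overlapped at both times. The change of 0.24 ± 0.25 at 24 h did not pass (adjusted p = 0.454). That of -0.64 ± 0.25 at 48 h passed (adjusted p = 0.0348), and did not without control replicate 1 (0.137), control replicate 3 (0.0714), high dose replicate 2 (0.0856) or high dose replicate 3 (0.126). With the replicate block the high dose also lay below the low dose at 48 h (-0.57, adjusted p = 0.00094, against 0.074 without it), and its effect at 48 h was below that at 24 h (-0.87, adjusted p = 0.00131, against 0.0894). The Ota high dose change at 24 h was below that of Aa by -3.29 ± 0.43 (adjusted p = 1.79e-07) on the reported ERBB2 set, and by -0.01 (adjusted p = 0.986) on 210930_s_at.

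ERBB3, the neuregulin receptor with an impaired kinase, was near background, with group means of 3.56 to 4.97 and values over 4 on 29 of 36 arrays. Its highest level was in Ota low dose cells at 72 h, at 5.13, 4.95 and 4.82, against 4.13, 4.13 and 4.45 in controls, with high dose cells at 3.97, 4.14 and 3.97. The low dose arrays stood above both other groups, the control by 0.73 ± 0.14 (SE; 1.66-fold, adjusted p = 0.00242). It was also called lower at high dose in Ota cells at 24 h (-0.42 ± 0.14, adjusted p = 0.0168) and in Aa cells at 48 h (-0.80 ± 0.23, adjusted p = 0.00609). The Ota value turned to 0.07 after quantile normalization and 0.21 after the shift, and was not called without control replicate 3 (0.0711) or high dose replicate 1 (0.056). With values at or under 4 set to 4, the Aa change was -0.35.

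The high and low doses themselves differed for 2 of 7 members at 24 h of Aa (1 higher, 1 lower), against 27.1% of genes (17.1% higher, 9.95% lower), and for 3 of 7 at 48 h (1 higher, 2 lower), against 46.5% (20.9% higher, 25.6% lower). With the replicate block these counts were 4 and 5, against 41.5% and 58.7% of genes. In Ota they differed for 4 of 8 at 24 h (2 higher, 2 lower), against 58.1% (19.4% higher, 38.7% lower), and for 6 of 8 at 72 h (2 higher, 4 lower), against 58.4% (21.7% higher, 36.7% lower). NRG1 was lower at high than at low dose in Ota by 2.68 ± 0.37 at 24 h (adjusted p = 1.92e-05) and at least 12.7-fold at 72 h (8.39e-08). In the time interaction of the Ota high dose, 6 of 8 members were called (3 higher, 3 lower), against 53.8% (33.0% higher, 20.8% lower): HBEGF, TGFA and ERBB2 higher at 72 h than at 24 h relative to control, and EREG, BTC and EGFR lower.

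The rest of the pathway was read from 6 lists of 98 genes, of which 88 had a probe set. The high dose counts below stand beside these shares of all tested genes. In Aa 27.4% were called higher and 24.0% lower at 24 h, and 30.9% and 35.1% at 48 h. In Ota the shares were 21.6% and 42.4% at 24 h, and 26.3% and 37.0% at 72 h. Counts near these shares say little about a list. Of the other ligands and the receptor ERBB4, 5 had a probe set, and EGF alone reached the filter, in Ota, where no dose was called against control. EGF was called lower in the Ota controls at 72 h than at 24 h (-0.80 ± 0.26, adjusted p = 0.0311), with means of 3.38 and 4.18. NRG2, NRG3, NRG4 and ERBB4 had group means of 2.40 to 2.87. So ERBB4, the other receptor of NRG1, HBEGF, EREG and BTC, was not above background in any group.

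Among 10 genes that cut ligands loose or assist in it, 4 rose and 1 fell of 9 tested in Aa high dose cells at both times. ADAM8 and ADAM9, metalloproteases of the cell surface, rose by 2.13 ± 0.16 and 1.87 ± 0.24 at 24 h and by 1.71 ± 0.16 and 1.92 ± 0.24 at 48 h (SE, all adjusted p at most 1.31e-05), and ADAM10 fell by 0.71 and 1.16. ADAM17, the main sheddase of HBEGF and TGFA, was called higher at 24 h (0.31) and had 0.08 at 48 h. In Ota high dose cells 2 rose and 3 fell of 8 tested at 24 h (6 and 2 after the shift), and 3 rose and 2 fell at 72 h. RHBDF1 and FRMD8, cofactors of ADAM17, changed by -1.83 ± 0.25 and -3.84 ± 0.37 (-3.67 with values at or under 4 set to 4) at 24 h, and RHBDF1 by -2.01 ± 0.25 at 72 h, when ADAM8 rose by 0.93 ± 0.31 (0.0574 without control replicate 3) and ADAM17 by 0.53. The median change of the list was 0.25 and 0.44 in Aa at 24 and 48 h and 0.13 and 0.26 in Ota at 24 and 72 h, beside 0.03, -0.04, -0.26 and -0.12 over all tested genes.

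Of 14 genes for receptor trafficking and co-factors, all tested, 2 rose and 6 fell in Aa high dose cells at 24 h and 3 rose and 8 fell at 48 h. SH3KBP1, an adaptor of the ubiquitin ligase CBL, fell by 1.82 ± 0.27 and 2.87 ± 0.27, and the endocytic adaptor EPS15 by 1.46 ± 0.18 at 48 h. SNX1, a sorting nexin, rose by 2.26 ± 0.25 at 24 h. In Ota high dose cells 3 rose and 6 fell at 24 h (7 and 3 after the shift), and 4 rose and 2 fell at 72 h. STAM and TSG101, which sort ubiquitinated receptors towards the lysosome, changed by -4.63, with values at or under 4 set to 4, and by -2.67 ± 0.13 at 24 h. STAM averaged 3.59 in high dose cells there, under the floor, and 8.85 in controls. CD44, the hyaluronan receptor, averaged 12.10 ± 0.24 in high dose cells at 72 h and 8.83 ± 0.30 in controls (SD, n = 3 each), and SNX1 rose by 2.51 ± 0.23. The list's median was -0.20, -0.35, -0.33 and -0.10 in the same order as above, and in Ota it turned after the shift, to 0.31 at 24 h and 0.23 at 72 h (-0.10 and 0.11 after quantile normalization).

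Of 25 adaptors and kinases of the RAS-ERK and PI3K pathways 18 had a probe set and 17 were tested. In Aa high dose cells 3 rose and 4 fell at 24 h (6 and 6 with the replicate block), and 4 rose and 6 fell at 48 h. AKT2 rose by 1.86 ± 0.19 and the phospholipase PLCG1 by 1.03 ± 0.16 at 24 h, and at 48 h the RAS exchange factor SOS1 fell by 1.94 ± 0.28 and the kinase PIK3CB by 1.44 ± 0.19. Under high dose Ota 4 rose and 8 fell at 24 h (7 and 4 after quantile normalization or the shift), and 7 rose and 6 fell at 72 h (9 and 3 after the shift). SOS2, another exchange factor, changed by -4.66 with the floor (3.96 in high dose cells, 9.22 in controls) and PLCG1 by -2.45 ± 0.24 at 24 h, and at 72 h AKT2 rose by 2.90 ± 0.14 and MAP2K2, a kinase of ERK, fell by 1.35 ± 0.27. The median was -0.05, -0.17, -0.40 and 0.09; that at 24 h of Ota turned to 0.25 after quantile normalization.

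Of 23 feedback inhibitors of the receptors and of ERK 19 were tested. In Aa high dose cells 3 rose and 8 fell at 24 h and 4 rose and 10 fell at 48 h. LRIG1, which promotes receptor degradation, fell by 1.46 with the floor and its relative LRIG2 rose by 2.31 ± 0.34 at 24 h. At 48 h the ubiquitin ligase CBLB and LRIG3 changed by -3.74 and -3.07 with the floor. Under high dose Ota 1 rose and 12 fell at 24 h (4 and 9 after the shift), and 7 rose and 8 fell at 72 h (9 and 5 after quantile normalization, 10 and 5 after the shift). RNF41, a ubiquitin ligase of ERBB3, averaged 3.32 and 3.55 in high dose cells, under the floor, and changed by -3.04 at 24 h and -4.27 at 72 h with the floor. SPRED2, an inhibitor of RAS-ERK signalling, fell by 3.88 ± 0.29 at 24 h and SPRY1 fell by 2.09 ± 0.37 at 72 h. The median was -0.39, -0.46, -1.06 and 0.27, and in Ota -0.48 and 0.39 after quantile normalization and -0.42 and 0.60 after the shift.

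Of 20 genes transcribed downstream of ERK, 17 were tested in Aa and 16 in Ota. In Aa high dose cells 7 rose and 6 fell at 24 h, and 11 rose and 3 fell at 48 h, when the median was 1.72 and that of all tested genes -0.04. PHLDA1 rose by 2.33 ± 0.28 and the early response factor EGR1 fell by 1.85 ± 0.25 at 24 h, and the AP-1 members FOS and FOSL1 rose by 4.80 ± 0.36 and 3.27 ± 0.61 at 48 h (4.65 and 3.00 with the floor). In Aa low dose cells at 48 h 9 rose and 2 fell, with a median of 0.76. In Ota high dose cells 4 rose and 9 fell at 24 h (6 and 5 after the shift), with a median of -0.55 (0.08 after the shift), and 8 rose and 6 fell at 72 h. PHLDA1 rose by 2.88 ± 0.29 and 2.86 ± 0.29 at 24 and 72 h, and PLAUR, the urokinase receptor, by 2.34 ± 0.16 and 5.88 ± 0.16. The 11 of 17 higher and 3 of 17 lower in Aa high dose cells at 48 h stand beside 30.9% and 35.1% of all tested genes. The 9 of 17 higher and 2 of 17 lower in low dose cells at that time stand beside 18.8% and 19.1%. The list was chosen with earlier results of these data known, so these counts only describe it.

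Markers of other cell types moved with some of these groups. The leukocyte list held 3 genes with a probe set: PTPRC, its defining marker, had group means of 2.82 to 3.02 throughout, whereas FCER1G was called higher at high dose in all 4 comparisons, up to 6.77 in Ota cells at 72 h against 2.53 in controls, and ITGAM averaged 4.96 in Ota high dose cells at 24 h against 2.35 in controls. In Aa at 24 h all 3 were at or under 4 on every array of high dose cells and controls. The FCER1G call there thus lies under the floor. In Aa, values over 4 on this list occurred only in high dose cells at 48 h, and FCER1G passed the filter through that group alone. The sum of the 3 log2 values ranged from 13.96 to 15.14 in Ota high dose cells at 24 h against 7.66 to 7.71 in controls, from 11.76 to 12.54 at 72 h against 7.18 to 8.14, from 8.21 to 9.22 in Aa high dose cells at 24 h against 7.19 to 8.13, and from 9.36 to 10.68 at 48 h against 7.58 to 8.03. Of 14 epithelial and tubule markers 7 were tested, and 4, 5, 2 and 4 fell at high dose of Aa 24 h, Aa 48 h, Ota 24 h and Ota 72 h, where 24.0%, 35.1%, 42.4% and 37.0% of all tested genes fell. In Aa at 48 h 1 rose, and after the shift to a common median 2 rose and 2 fell in Ota at 24 h and 1 rose and 3 fell at 72 h. The counts of all tested genes after the shift are given above with the pathway lists. CDH1, E-cadherin, fell by 3.27 at 72 h of Ota. The sum of the 14 values ranged from 92.4 to 94.9 in Aa high dose cells at 48 h against 97.2 to 100.3 in controls, and from 93.4 to 95.3 in Ota high dose cells at 72 h against 99.6 to 100.7. Of 5 fibroblast markers DCN, LUM and COL1A1 had group means of 6.30 to 11.41, and COL1A2 and PDGFRB did not exceed 3.01. Of 3 tested, 2 were lower in the Ota controls at 72 h than at 24 h (median -1.80), against 15.8% of genes. At low dose Ota 72 h 2 were higher than in controls (median 1.27), against 9.79% of genes. At high dose 2 fell in Aa at 24 h, 1 rose and 1 fell in Ota at 24 h, and 1 rose at 72 h. The endothelial PECAM1, CDH5 and VWF did not exceed 3.50 in any group mean, while ESAM reached 6.95 in the Ota controls at 72 h. ESAM, the 1 endothelial marker tested, was called higher in those controls than at 24 h (1.51). It was called lower at high dose Ota 72 h (-1.97). The part of these marker changes in the results on ligands and receptors was not tested.

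For each member the genes with the most similar pattern over the 12 group means were named, by Pearson correlation among all tested genes. They were ASCC2, LIF and LSR for HBEGF (0.975, 0.974 and 0.974), CARS1, CEBPG and ZNF407-AS1 for EREG (0.929, 0.889 and 0.884), and TMEM245, VRK1 and BFSP1 for TGFA (0.953, 0.940 and 0.938). For NRG1 they were METTL23, STOML1 and RMND5B (0.966, 0.966 and 0.963), for EGFR NR3C2, DYNC2H1 and VWA8 (0.969, 0.969 and 0.966), and for ERBB2 STON2, EIF4ENIF1 and ABL1 (0.987, 0.985 and 0.984). The dim genes BTC and ERBB3 had MAGT1, GARS1 and MCFD2 (0.909, 0.906 and 0.899) and SLC18B1, KBTBD11 and GRAMD4 (0.899, 0.892 and 0.888). LIF, a cytokine also on the ERK list, rose at high dose by 0.75 and 1.89 in Aa at 24 and 48 h and by 0.64 and 1.46 in Ota at 24 and 72 h.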

How the data were processed

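The 36 arrays hold log2 expression values per probe set that the authors made with GCRMA, a method that subtracts a sequence-based background, normalizes arrays and summarises probes, per the submitters' processing notes. Its version is not given in the sources used here, and the number of arrays limits the precision. The members and gene lists were chosen with earlier results of these data known. Probe sets with 1 symbol in the platform annotation were kept, 1 per gene, by the highest mean over 36 arrays, and sets ending in _x_at were a last resort.

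Genes over 4 on at least 3 arrays were fitted with limma 3.58.1 in R 4.3.3 (group means, 18 arrays per compound with 12 residual degrees of freedom, or all 36 with 24), with Benjamini-Hochberg adjustment over all tested genes, and p-values in the text are from this fit. The fit was tested on simulated data. Values after ± are SE for changes and SD for means. A probe set at or under 4 on all 3 arrays of a group was set to 4 there, and its fold given as at least. Figures used Python 3.11.15 and matplotlib 3.10.9. The labels say biological replicates without naming separate cultures, so p-values measure the spread between these samples, which may be technical.

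Replicate numbers paired the Aa arrays: in all 45 same-numbered pairs the deviations from group means correlated over 0.1 (0.19 to 0.60), against 24 of 45 pairs in Ota, where at 24 h the dose groups and controls qualified. Alternatives were no filter, a filter at 5, quantile normalization, a shift to a common median, values set to 4, all 36 arrays in 1 fit, the replicate block, each array left out, other probe sets of a member, and, added after seeing the data, Ota without its 24 h high dose arrays. Named list genes were the 2 called with the largest change per list and high dose comparison; ADAM10, ADAM17 and the markers were named after their values were seen. AREG was not analysed, since no probe set carried its symbol alone.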

Additional observations from a re-analysis of the deposited data

Results flagged for a closer look

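These effects differed between times or compounds by the interaction test of limma, each over groups of 3 arrays. The Aa high dose effect on HBEGF was larger at 48 h than at 24 h by 2.72 (adjusted p = 0.00249). The Ota high dose effect differed between 72 h and 24 h for HBEGF by 1.77 (adjusted p = 0.00607), for TGFA by 0.80 (0.0215), for ERBB2 by 2.14 (0.00118), for EREG by -1.32 (0.0294), for BTC by -2.08 (0.000373) and for EGFR by -0.79 (0.0158). The later control arrays had themselves moved, higher for EREG and BTC.

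Between the high doses at 24 h, which are not matched, the Ota effect minus the Aa effect was -1.25 for HBEGF (adjusted p = 0.0375), -3.31 for NRG1 (7.35e-05), 0.60 for EGFR (0.017) and -3.29 for ERBB2 (1.79e-07). On the other tested ERBB2 probe set the differences were -0.01 between compounds and 0.013 between the Ota times, neither called. On the EGFR sets 201984_s_at and 224999_at they were -0.18 and 0.29 between compounds and -0.47 and -0.57 between the Ota times, none called. The limits on HBEGF, TGFA and NRG1 from their other probe sets are given above. The median of all genes in that difference was -0.33 as deposited, 0.08 after quantile normalization and 0.42 after the shift to a common median.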

How the results depend on the processing

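Of 911 changes of members under another setting, 849 kept their call or lack of one, 18 lost it, 41 gained one and 3 turned in direction. Turned here means a change of sign with a call in at least 1 of the settings compared. Among those kept, 20 that were never called also changed sign. On other probe sets, of 222 changes 147 kept it, 41 lost it, 15 gained one and 19 turned. With 1 array left out, of 906 changes 838 kept it, 52 lost it and 16 gained one. Changes of sign that were never called numbered 20 and 34 there. With the replicate block, which pairs the Aa arrays, members called were 4 at low dose Aa 24 h (genes 4323, against 2753), 4 and 5 for high against low dose Aa at 24 h and 48 h (genes 4553 at 24 h, against 2970), 3 for the Aa time interaction (genes 4304, against 2276), 1 for the Aa controls (genes 1792, against 142), 2 at low dose Ota 24 h and 4 for the Ota controls. No call of a member was lost with the block. With all 36 arrays in 1 fit, members called were 0 at low dose Aa 24 h and 2 at low dose Ota 24 h, and the shift to a common median also gave 2 there. After the shift 1699 genes were called at low dose Ota 24 h, against 1619. The genes called in the 1 fit of 36 arrays are not given here. With no filter, 10168 genes were called between compounds, against 6775. Without the Ota high dose 24 h arrays, which was tried only once the data had been seen, 2556 genes were called at low dose Ota 24 h, against 1619, and 4 members between the Ota controls.

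In Ota high dose cells at 24 h ERBB3 turned to 0.073 after quantile normalization and 0.21 after the shift, and EGFR to 0.16 after the shift. Other probe sets turned as follows. For EGFR, 1565483_at gave 2.60 at high and 0.30 at low dose Aa 48 h and 2.30 between them; 1565484_x_at gave 1.26 at high dose Aa 48 h and 0.10 and 1.28 for high against low dose at 24 and 48 h; 201984_s_at gave -0.18 between compounds. For NRG1 in Ota, 206237_s_at gave 0.28 at high dose 24 h, 0.061 and 0.27 at low dose 24 and 72 h and 0.22 for high against low dose 24 h. For NRG1 in Ota, 208232_x_at gave 0.58 and 0.046 at high dose 24 and 72 h, 0.17 at low dose 24 h, and 0.40 and 0.24 for high against low dose at 24 and 72 h. Between compounds the NRG1 sets 206237_s_at, 208232_x_at and 208241_at gave 1.54, 0.92 and 0.65. The cause was not tested.

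With 1 array left out, members called ranged from 0 to 4 at low dose Aa 24 h, 1 to 2 in the Aa time interaction, 0 to 1 in the Aa controls, 4 to 7 at high dose Ota 24 h, 2 to 4 at low dose Ota 72 h and 2 to 4 in the Ota controls. Genes called ranged from 17 to 550 in the Aa controls, 942 to 1336 at low dose Ota 24 h and 1170 to 1531 at low dose Ota 72 h. They ranged from 1947 to 2759 at low dose Aa 24 h and 1540 to 2530 in the Aa time interaction. At high dose Ota 24 h the range was 6511 to 7105, and in the Ota controls 2526 to 2829. BTC and ERBB3 lie near background, which limits their changes, and groups of 3 arrays limit all others.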
